A study of Mus musculus with 3 samples.

Results

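The genes described are the translation initiation and elongation factors of mouse T-helper 1 (Th1) cells, the CD4 helper T cells known for making interferon-gamma. Autosomal protein-coding genes whose symbols begin with Eif1 to Eif6, Eef1 or Eef2 were taken, which gave 64 of the 50600 genes in the table and 64 of its 20620 autosomal protein-coding genes. A further 11 genes with such symbols were left out, 8 because they are not protein-coding and 3 because they lie on X or Y, among them both genes of the eIF2 gamma subunit. The labels describe primary Th1 cells of mouse strain C57BL/6NJ, with sex, age and developmental stage not given, and the file headers name a time of 2 hours whose starting point they do not state. There are 3 libraries, numbered as biological replicates 1, 2 and 3 of this 1 group, and no untreated or other group to set them against. The cells carry a protocol for differentiating CD4 T cells, and the sources name both total RNA (the assay) and polyadenylated RNA (the library protocol). Separate biosamples but a common donor entry are recorded, so nothing shows that the cultures came from separate animals, and p-values between libraries cover only the spread of these samples, which may be technical.

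Translation begins when the small ribosomal subunit, carrying the initiator tRNA on eIF2 and bound by eIF1, eIF1A, eIF3 and eIF5, is brought to the capped end of an mRNA by the eIF4 factors and scans to the start codon. eIF5B then joins the large subunit, eEF1A delivers each aminoacyl-tRNA, and eEF2 moves the ribosome along. Control acts mainly at the kinases that phosphorylate eIF2, at eIF2B, which recharges eIF2 with GTP, and at the 4E-binding proteins, which hold the cap-binding protein eIF4E away from eIF4G until mTOR releases it. T cells raise protein synthesis sharply when their receptor is engaged.

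The libraries held 4442901, 3123869 and 2950658 counts in replicates 1, 2 and 3. Levels are given as TPM, a transcript level corrected for exon length and scaled to a common total per library, computed from the deposited counts over all genes. All 7 CD4 T cell markers looked up reached 1 TPM in every library, as did 3 of 5 Th1 markers, against 39.6% of autosomal protein-coding genes. So did 2 of 4 CD8 T cell markers, 2 of 6 of macrophages and neutrophils, 1 of 5 of B cells and 1 of 3 erythroid ones. The Th1 list had a median of 2.53 ± 0.997 TPM (SD, n = 3) and the CD8 list 3.40 ± 1.75, so these lists do not separate the 2 types. Of the Th1 list, Stat4 had 23.2, 11.01 and 13.4 TPM, Il12rb2, opposed by a gene whose exons overlap its own on the other strand, 9.51, 16.4 and 9.63, while Tbx21 had 19, 7 and 11 counts, Cxcr3 6, 2 and 2, and Ifng 1, 2 and 0. Of 5 B cell markers 4 had no count and Cd79a had 86, 133 and 83. Of 6 markers of macrophages and neutrophils 3 had no count, and the list summed to 177, 137 and 181 TPM, nearly all on Csf1r, which a gene of the other strand faces. Of 4 CD8 T cell markers Gzmb had no count and Cd8a had 2, 1 and 0. Cd8b1 had 34, 16 and 10 counts, and Prf1 had 78, 27 and 38. Both NK cell markers and the erythroid globin genes were at 0, and the erythroid gene Alas2, which is opposed, had 11, 22 and 27 counts. In such bulk samples fewer cells of a type and less RNA per cell cannot be told apart. Counting credited a read pair to a gene when its first read lay on the gene's own strand, and the strand behaviour of the library kit is not given in the sources used here. mt-Nd6, the mRNA encoded on the mitochondrial strand opposite to the others, had 31858, 22709 and 31808 counts, against 13937, 6092 and 4601 for mt-Co1. The median of opposed autosomal protein-coding genes was 4.29 ± 0.920 TPM (SD, n = 3), and that of unopposed ones was 0 in each library. High counts on the antisense side of genes are what a strand setting opposite to the kit would give, and the values of each gene would then be reads from the strand opposite to its mRNA. Whether the setting matched the libraries was not tested, so every level below is a level in the deposited counts and may not measure the mRNA of the gene.

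Translation factors had high values in the deposited counts. Of the 64 genes, 57 (89.1%) reached 1 TPM in every library, against 39.6% of all autosomal protein-coding genes. Their median level was 74.3 TPM in replicate 1, 34.2 in replicate 2 and 43.8 in replicate 3, on average 50.8 ± 21.0 (SD, n = 3). The median of autosomal protein-coding genes that reached 1 TPM in every library was 11.5 ± 3.69. With only protein-coding genes in the TPM denominator the median of the 64 genes was 121 ± 22.7 TPM, so a single level depends on what else is counted. The factors took 2.08%, 1.39% and 1.52% of all counts, with 95% Wilson intervals of 2.07 to 2.10, 1.375 to 1.401 and 1.505 to 1.532 that cover counting error only. At the other end, Eef1a2 and Eif4e1b had no count in any library. Of the 500 autosomal protein-coding genes of highest mean TPM, which are 2.42% of such genes, 20 were translation factors.

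**Figure D1:**
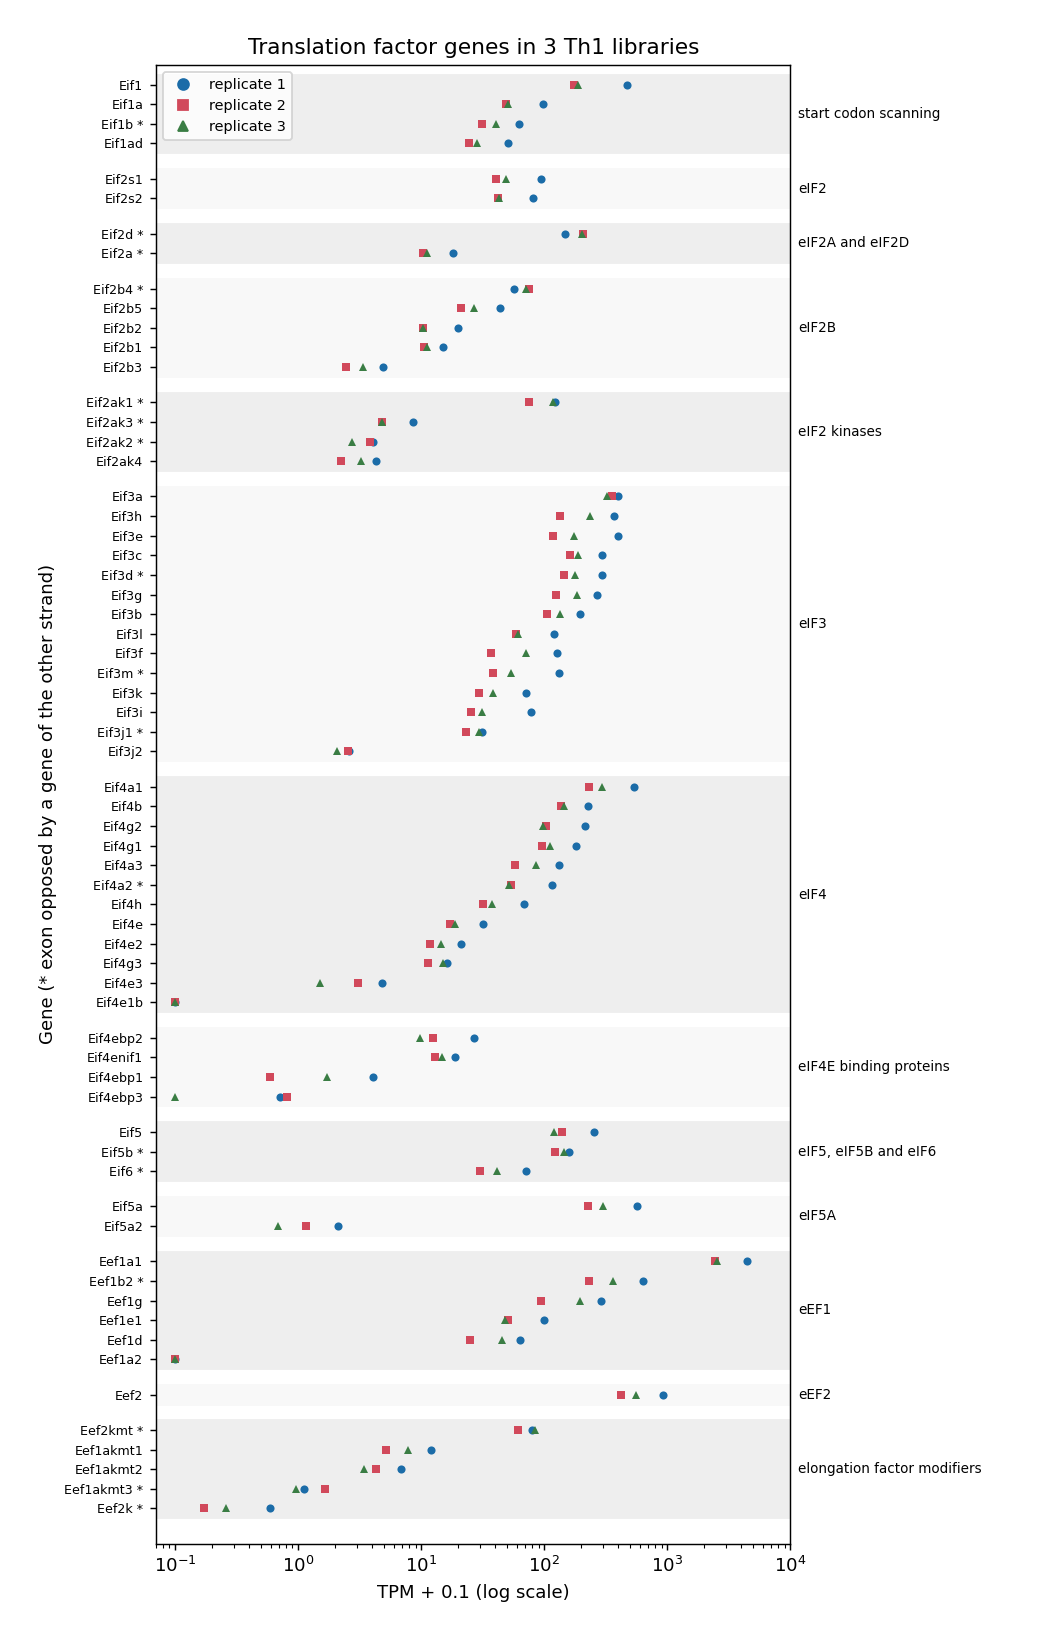
TPM + 0.1 on a log axis for each of the 64 genes, grouped by factor complex or role, with 1 point for each of 3 libraries; an asterisk marks a gene with an exon opposed by a gene of the other strand. Eef1a1 stands farthest to the right, and Eef1a2 and Eif4e1b sit at the left edge, where the level is 0.

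For 17 of the 64 genes exon bases were shared with a gene transcribed in the reverse direction, and these are called opposed. A further 3 (Eif2s2, Eif4g3 and Eif4enif1) overlapped such a gene only outside exons, and 44 were unopposed. The share opposed, 26.6%, compares with 22.9% of all autosomal protein-coding genes. Values of opposed genes are uncertain, since their reads and those of the facing gene are told apart by strand alone. The opposed factors had a median of 53.3 ± 16.5 TPM (SD, n = 3) and the unopposed ones 55.4 ± 26.7, a difference smaller than the SD over the libraries. Within libraries the order changed, with 70.7, 37.9 and 51.2 TPM for opposed factors and 85.4, 34.2 and 46.5 for unopposed ones.

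The elongation factors held the highest levels. Eef1a1, which encodes the main eEF1A (chromosome 9, 78478449 to 78489151 on mm10), had 4400.1, 2443 and 2524 TPM in replicates 1, 2 and 3, from 24007, 11425 and 10683 counts. It had rank 3, 4 and 7 among autosomal protein-coding genes in the 3 libraries and alone made up 33.8% ± 2.11 (SD, n = 3) of the TPM of all translation factors. Processed pseudogenes of this gene are common in mammals, and the headers name no option for reads that map to several places, so its level is uncertain. Eef1a2, the eEF1A of muscle and neurons, had no count, which by counting error allows up to 0.658, 0.767 and 0.848 TPM, and over the summed counts Eef1a1 was at least 12850-fold higher per exon base, taking 3 counts over the group for Eef1a2.

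Eef2, the translocase (chromosome 10, 81176631 to 81182498), had 918, 418 and 554 TPM. It came second of all the factors in every library, and the log2 ratio of Eef1a1 to Eef2 was 2.33 ± 0.19 (SD, n = 3), positive in all 3. Among the subunits of eEF1B, which reloads eEF1A with GTP, the levels were unequal. Eef1b2, its alpha subunit and opposed over only 9 bases by Ndufs1, had 632, 229 and 359 TPM. Eef1g, the gamma subunit, had 291, 94.1 and 197 TPM. Eef1d, the delta subunit, had 63.2, 25.0 and 45.0 TPM. The order alpha, gamma, delta was the same in each library, and summed counts put Eef1b2 9.26-fold above Eef1d per exon base (exact 95% interval 8.75 to 9.80). This interval and those of the other summed ratios below cover counting error only, not differences between libraries. Within libraries the log2 ratio of Eef1b2 to Eef1d was 3.32, 3.19 and 2.99. Eef1e1, a scaffold protein of the tRNA synthetase complex that shares the family's name, had 99.2, 50.6 and 47.9 TPM.

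Genes that modify elongation factors were low except for 1. Eef2k, the kinase that inhibits eEF2, had 8, 1 and 2 counts, or 0.493, 0.072 and 0.159 TPM, and lies opposite Gm15774. Its counts were at or under 3 in replicates 2 and 3, so its level there cannot be told from 0. Eef2 exceeded it 2514-fold per exon base over the summed counts (1405 to 5038). The eEF1A lysine methyltransferases Eef1akmt1, Eef1akmt2 and Eef1akmt3 had 8.29 ± 3.49, 4.77 ± 1.76 and 1.15 ± 0.371 TPM (SD, n = 3). Eef2kmt, an eEF2 methyltransferase, stood far above these at 79.7, 60.8 and 84.05 TPM, and an exon of it faces Alg1 over 472 bases.

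Among the scanning factors, Eif1, which guards start codon choice, led in every library. Eif1 (chromosome 11, 100319885 to 100322096) had 466, 174 and 186 TPM. Its paralog Eif1b, opposed by D830035M03Rik, had 62.1, 31.3 and 40.3 TPM. The log2 ratio of Eif1 to Eif1b was 2.53 ± 0.35 (SD, n = 3), positive in all 3 libraries. Eif1a, encoding an eIF1A, had 96.8, 48.5 and 50.5 TPM, and the related Eif1ad had 50.7, 24.4 and 28.4.

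The 2 autosomal subunits of eIF2 were at nearly equal levels. Eif2s1, the alpha subunit that the stress kinases phosphorylate, had 93.4, 40.2 and 48.5 TPM. Eif2s2, the beta subunit, had 81.6, 42.1 and 42.5 TPM. Their log2 ratio was 0.11 ± 0.15 (SD, n = 3) and changed sign between libraries (exact two-sided sign-flip permutation test, p = 0.5, adjusted 0.536), and the mean lay within 1 SD of 0.

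eIF2B, the exchange factor of eIF2, had its 4 unopposed subunits below its substrate in every library. Eif2b5, which holds the catalytic activity, had 43.6, 21.1 and 26.6 TPM, Eif2b2 had 19.9, 10.2 and 10.3, Eif2b1 had 15.05, 10.5 and 10.95, and Eif2b3 was lowest at 4.77, 2.37 and 3.25. Eif2b4, opposed by Snx17 over 204 bases, had 56.6, 75.3 and 71.6 TPM and was the highest eIF2B subunit in every library, below Eif2s1 and Eif2s2 in replicate 1 and above both in replicates 2 and 3. The median of the unopposed subunits was 12.8 ± 4.02 TPM (SD, n = 3), against 58.1 ± 25.6 for eIF2.

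Of the 4 eIF2 kinases 1 stood far above the rest. Eif2ak1, the haem-regulated kinase (chromosome 5, 143817788 to 143904251), had 123, 75.2 and 118 TPM, and its exons face Ankrd61 and Aimp2. Eif2ak2, the kinase of double-stranded RNA known as PKR, had 3.93, 3.75 and 2.65 TPM. Eif2ak3, the kinase of endoplasmic reticulum stress known as PERK, had 8.42, 4.69 and 4.69. Eif2ak4, the amino acid sensor GCN2 and the only unopposed kinase, had 4.17, 2.14 and 3.16 TPM. The lowest library of Eif2ak1 thus lay above the highest of each of the others, and its summed counts were 32.9-fold above Eif2ak4 per exon base (27.8 to 39.3). Ankrd61, which faces Eif2ak1, had 99.0, 153 and 158 TPM and 1.27-fold more summed counts per exon base than Eif2ak1. Whether reads of Ankrd61 enter the count of Eif2ak1 was not tested.

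Eif2a and Eif2d, which encode factors able to bring initiator tRNA without eIF2, differed widely, and both are opposed. Eif2d (chromosome 1, 131153181 to 131187658) had 146, 205 and 202 TPM, from 2362, 2833 and 2534 counts. Eif2a had 18.1, 10.2 and 10.98 TPM. Eif2d faces Rassf5 over 78 bases, and Eif2a faces Serp1 over 72.

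Subunits of eIF3, the largest initiation factor, differed widely in level. Eif3a, the scaffold subunit (chromosome 19, 60761116 to 60790693), was highest in every library at 397, 357 and 324 TPM. In TPM over all genes its coefficient of variation over the libraries, 10.2%, was the lowest of the factors that passed the count filter, but after TMM scaling its libraries were at 872, 1225 and 1054 CPM (counts scaled to the library total). Eif3h had 366, 134 and 234 TPM, Eif3e 394, 118 and 173, Eif3c 294, 163 and 188, Eif3d 294, 145 and 179, and Eif3g 266, 125 and 185. These 5 neighbours in the order overlapped in their spread, with means of 192 to 244 TPM. That spread includes the rise of most genes in replicate 1, so it does not settle their order within a library. Eif3h and Eif3g, the highest and lowest of these means, kept their order in each library. Eif3b, with Eif3a, Eif3c, Eif3g and Eif3i a part of the core conserved in yeast, had 196, 105 and 134 TPM.

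A lower set of subunits followed. Eif3l had 119.97, 58.9 and 61.3 TPM, Eif3f 127, 36.9 and 71.3, and the opposed Eif3m 131, 37.9 and 53.4. They had means of 80.04 ± 34.6, 78.5 ± 45.6 and 73.96 ± 49.6 TPM (SD, n = 3) and did not differ beyond their spread. Eif3k had 71.3, 29.4 and 38.2 TPM and Eif3i 77.4, 25.3 and 31.0. Without the loosely bound eIF3j, the highest of 12 subunits exceeded the lowest 5.57-fold, 14.1-fold and 10.5-fold in replicates 1, 2 and 3. The lowest was Eif3k in replicate 1 and Eif3i in the others. Eif3j1 had 31.3, 22.9 and 29.5 TPM and is opposed by Spg11 over 1107 bases. Its near copy Eif3j2 had 13, 11 and 8 counts, and since the pair may share reads their log2 ratio of 3.53 ± 0.34 is uncertain.

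**Figure D2:**
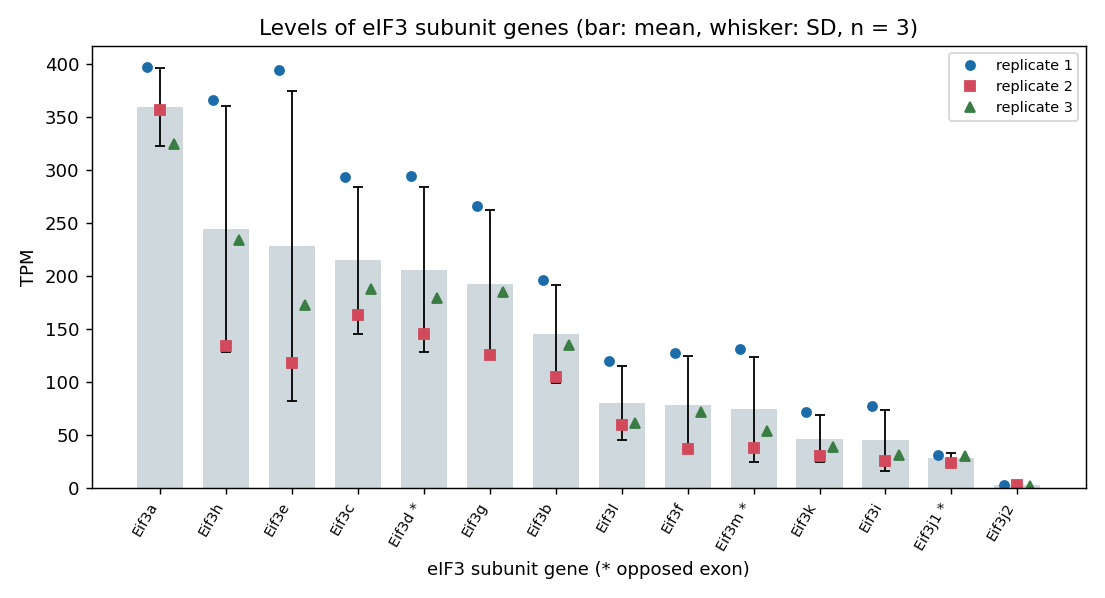
TPM of the 14 eIF3 subunit genes, ordered by mean, with bars for the mean, whiskers for the SD over 3 libraries and a point for each library. Eif3a has the highest mean, and Eif3e, Eif3i and Eif3m have replicate 1 far above the other libraries.

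Many mRNAs of translation factors are known to begin with a run of pyrimidines, through which mTOR controls their own translation. The 60 bases around the RefSeq start site (40 before it and 20 from it on, build GRCm38.p6) are shown for some factors. These are the most abundant elongation factors and Eif3a, the eIF3 subunit with the highest level. Eif3f and Eif3l were added after the sequences were seen, as the eIF3 subunits with the longest such run among those with a matched start site. No start site was matched for Eif3e, Eif3h, Eif3i or Eif3j2. Capitals mark the longest unbroken run of C and T that overlaps the 10 bases nearest the start, 5 on each side. The sequences lie at chr9:78481705-78481764 (minus strand), chr10:81176591-81176650 (plus), chr19:60790674-60790733 (minus), chr7:108934375-108934434 (plus) and chr15:79075183-79075242 (plus).
Eef1a1: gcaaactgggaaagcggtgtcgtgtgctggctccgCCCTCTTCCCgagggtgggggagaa
Eef2: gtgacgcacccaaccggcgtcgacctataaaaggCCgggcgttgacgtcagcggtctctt
Eif3a: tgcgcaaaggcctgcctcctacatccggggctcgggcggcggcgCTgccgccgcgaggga
Eif3f: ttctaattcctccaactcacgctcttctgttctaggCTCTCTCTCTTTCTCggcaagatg
Eif3l: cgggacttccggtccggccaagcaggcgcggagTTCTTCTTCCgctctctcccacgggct
The run was 15 bases long at Eif3f, 10 at Eif3l and Eef1a1, and 2 at Eif3a and Eef2. Only runs that overlap those 10 bases were measured, and the pyrimidines that end the Eef2 sequence lie outside them. Where transcription started in these cells was not tested. A run of at least 6 bases was found at 11 of 63 start sites of the 48 factors matched in the table (17.5%), against 20.2% of all 32851 start sites in it. The start that RefSeq gives for Eef1a1 lies 7427 bases inside the gene span of the files, and for Eef2, Eif3a and Eif3l it matches the end of that span.

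Among the eIF4 factors the helicase Eif4a1 and the scaffolds Eif4g1 and Eif4g2 stood above the cap-binding protein Eif4e in every library, and the scaffold Eif4g3 below it. Eif4a1, the main helicase (chromosome 11, 69666936 to 69672423), had 534, 230.3 and 297 TPM. Its paralog Eif4a2, opposed by Rfc4, had 115, 53.8 and 51.2 TPM, and the log2 ratio of the pair was 2.28 ± 0.23 (SD, n = 3). Small nucleolar RNA genes of the same strand share exon positions with both. Eif4a3, a related helicase of the exon junction complex, had 131, 58.0 and 86.05 TPM. Eif4b and Eif4h, which stimulate the helicase, had 169 ± 49.1 and 45.8 ± 19.5 TPM.

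The cap-binding genes were lower. Eif4e had 31.4, 17.0 and 18.7 TPM, from 413, 192 and 191 counts. Eif4e2, which encodes a related protein linked to repression, had 21.0, 11.6 and 14.3 TPM, so that the log2 ratio of Eif4e to Eif4e2 was small but of 1 sign, 0.51 ± 0.10. Eif4e3 had 26, 14 and 6 counts, and Eif4e1b, the form of oocytes, had none, which allows up to 0.608, 0.709 and 0.784 TPM. In every library Eif4e lay below Eif4a1 and Eif4g1 and above Eif4e3.

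The scaffold genes Eif4g1 and Eif4g2 had similar levels. Eif4g1 had 180.4, 95.01 and 111 TPM, and Eif4g2, whose product lacks the site for eIF4E, had 214, 103 and 96.7. Their log2 ratio of -0.05 ± 0.23 (SD, n = 3) changed sign between libraries (exact sign-flip permutation test, p = 0.75), and without replicate 1 its mean was 0.046. Eif4g3 had 16.1, 11.2 and 14.9 TPM, and Eif4g1 exceeded it in all 3 libraries by a log2 ratio of 3.15 ± 0.30.

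Among the genes of proteins that bind eIF4E, Eif4ebp2 and Eif4enif1 had similar means, and Eif4ebp1 and Eif4ebp3 were lower. Eif4ebp2 had 26.9, 12.3 and 9.67 TPM. Eif4ebp1 had only 19, 2 and 6 counts, or 3.95, 0.486 and 1.61 TPM, and lay below Eif4ebp2 in all 3 libraries, with a log2 ratio of -3.22 ± 1.03. Eif4ebp3 had 1, 1 and 0 counts, at or under 3 in each library, and shares 67.3% of its exon bases with Ankhd1 of the same strand, where a read fits both genes. Eif4enif1, the transporter of eIF4E into the nucleus, had 18.7, 12.9 and 14.7 TPM, above Eif4ebp2 in replicates 2 and 3. Summed counts put Eif4e 10.8-fold above Eif4ebp1 per exon base (exact 95% interval 7.35 to 16.5, counting error only). Within libraries the log2 ratio was 2.96, 4.87 and 3.46, a wider spread than that interval covers.

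Of the factors that act late in initiation Eif5 had the highest mean. Eif5, the GTPase activator of eIF2, had 255, 138 and 119 TPM, and Eif5b, opposed by Rev1 over 1643 bases, 159, 122 and 144. Eif6, which keeps the large subunit from joining too early and is opposed by Gm16098, had 70.7, 30.0 and 41.4. Eif5a, encoding the factor that carries hypusine and relieves stalled ribosomes (chromosome 11, 69916714 to 69921958), had 566, 226 and 301 TPM. Eif5a2 had 22, 10 and 5 counts, and Eif5a exceeded it 295-fold per exon base (214 to 420).

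Ratios were taken for 15 pairs of paralogs, partners or antagonists, and 13 of them had 1 sign in all 3 libraries. The exact sign-flip permutation test, two-sided, gave each of these 13 a p of 0.25, the smallest that 3 libraries allow, and 0.288 after Benjamini-Hochberg adjustment over the 15. No pair could have passed a threshold of 0.05 in this design. Ratios of Eef2 to Eef2k, Eif5a to Eif5a2 and Eif2ak1 to Eif2ak4 were the farthest from 0 among the pairs with counts on both genes, at 10.97 ± 0.34, 8.15 ± 0.59 and 5.03 ± 0.17. The first depends most on the pseudocount, since Eef2k was so low, and with 1 TPM in place of 0.1 it was 8.93. With that pseudocount the second was 7.31 and the third 4.67.

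**Figure D3:**
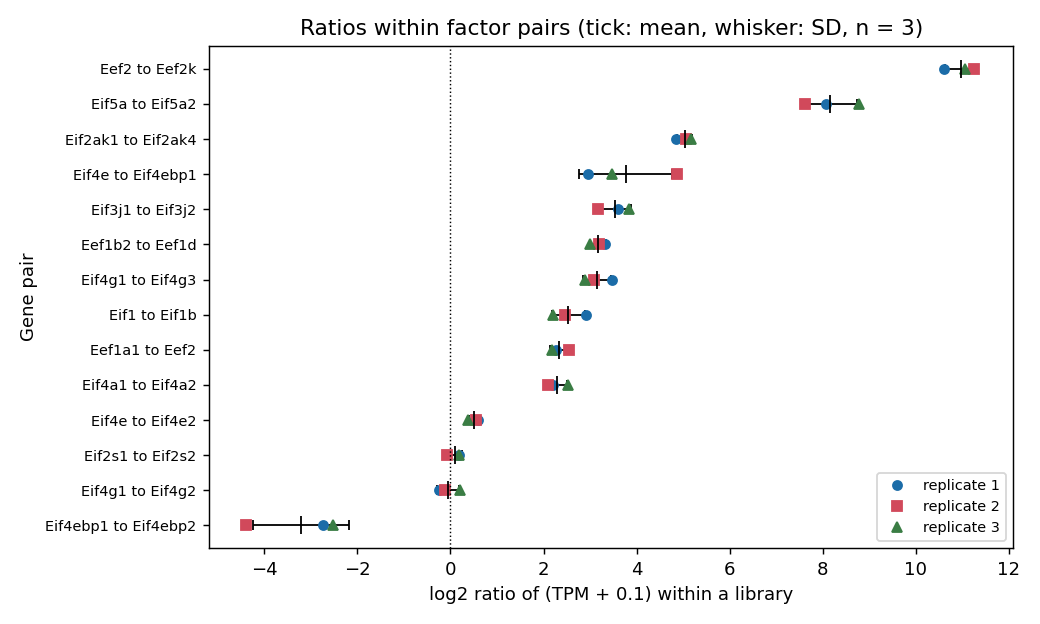
Log2 ratio of TPM + 0.1 within each library for 14 pairs of translation factor genes, with a point for each library, a tick for the mean and whiskers for the SD; the pair with Eef1a2, which had no count, is not drawn. Eif2s1 to Eif2s2 and Eif4g1 to Eif4g2 straddle 0, and in each other pair the 3 points lie on 1 side.

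The 17 opposed factors formed 20 pairs with genes of the other strand, over 9 to 1643 bases of shared exon, and in 9 pairs the facing gene had more counts per exon base. Eif3d, with 1229, 519 and 581 counts, faces the antisense gene Gm17638 (chromosome 15, 77961674 to 77967126), which had 11119, 11436 and 10727. That is 6.28-fold more per exon base over the summed counts, and it covers 32.7% of the exon bases of Eif3d. Eif2ak3, with 111, 53 and 48 counts, faces Gm43292 with 333, 384 and 307, or 11.9-fold more per base. Eef1akmt3 had 6, 8 and 4 counts and faces Mettl1 with 141, 46 and 51. Eif5b, Eif4a2 and Eef1b2, in contrast, had far more counts per base than the genes facing them. How far the reads of one gene enter the count of the other was not tested.

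**Figure D4:**
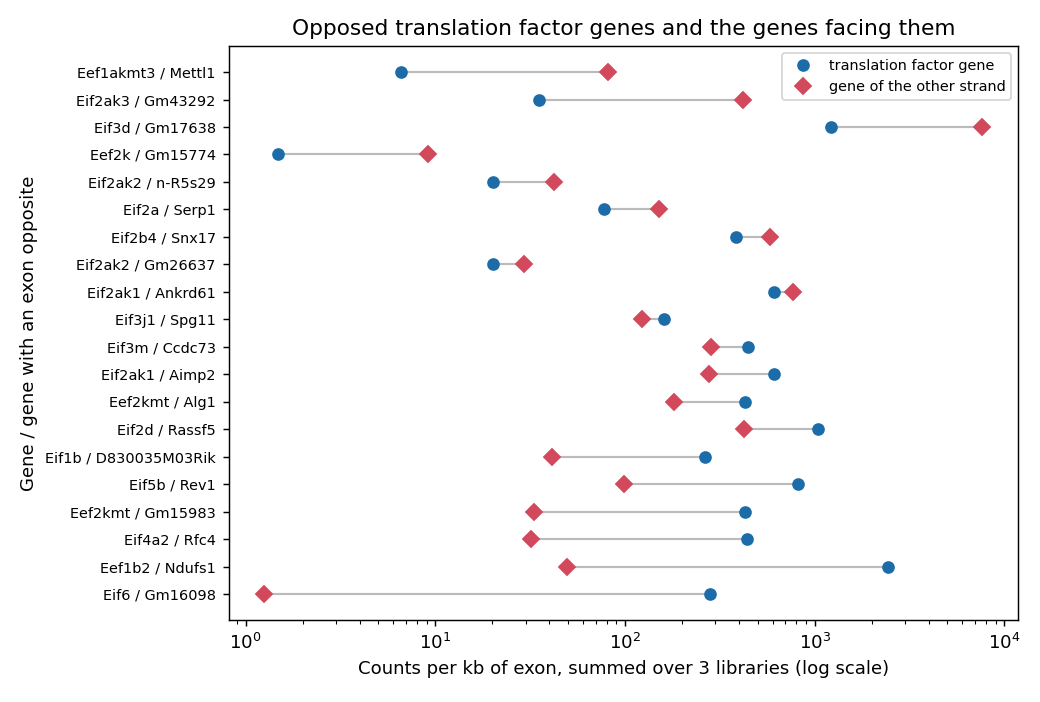
Counts per kb of exon, summed over 3 libraries, on a log axis for each opposed translation factor gene (circles) and the gene facing it (diamonds), 1 row a pair, ordered by their ratio. The facing gene is higher in the 9 pairs at the top, with Gm17638 the highest of all, and lower in the other 11.

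The libraries differed in a pattern shared by most factors. In TPM, 57 of the 62 factors with counts were highest in replicate 1. Of autosomal protein-coding genes that reached 1 TPM in every library, 79.8% were. Among unopposed factors 41 of 42 were highest there, against 88.5%, and among opposed ones 13 of 17, against 65.3%. Throughout this comparison the autosomal genes were filtered at 1 TPM in every library and the factors were not, so the sets are unlike. The direction depends on the scaling. Scaled by TMM, edgeR's method based on the bulk of genes, 42 factors were highest in replicate 1, against 48.5% of the same autosomal genes. With only unopposed protein-coding genes in the TPM denominator, 21 factors were highest in replicate 1 (33.9%) and 20 were lowest there (32.3%), against 24.4% and 41.7% of those autosomal genes. The share of counts on opposed genes, 55.1%, 69.1% and 67.3% of all counts in replicates 1, 2 and 3, moved with it, and its part in the pattern was not tested.

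Single factors differed in the direction or size of the change. Eif2d and Eif2b4, both opposed, were the 2 factors lowest in replicate 1 in TPM, at 0.719-fold and 0.771-fold of the mean of replicates 2 and 3. They are 11.8% of the opposed factors. Of opposed autosomal protein-coding genes at 1 TPM in every library 18.4% were lowest there, and of all such autosomal genes 10.1%. Being lowest there is thus not particular to these factors. Eif3m, Eif3i and Eif3e were 2.86-fold, 2.75-fold and 2.72-fold higher in replicate 1. Eif3a was 1.17-fold higher, the smallest rise of an unopposed factor among those that passed the count filter. After TMM scaling Eif3a was lowest in replicate 1, while Eif3e had 257.5, 120.3 and 167 CPM, lowest in replicate 2. The subunits of eIF3 thus ordered the libraries differently.

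**Figure D5:**
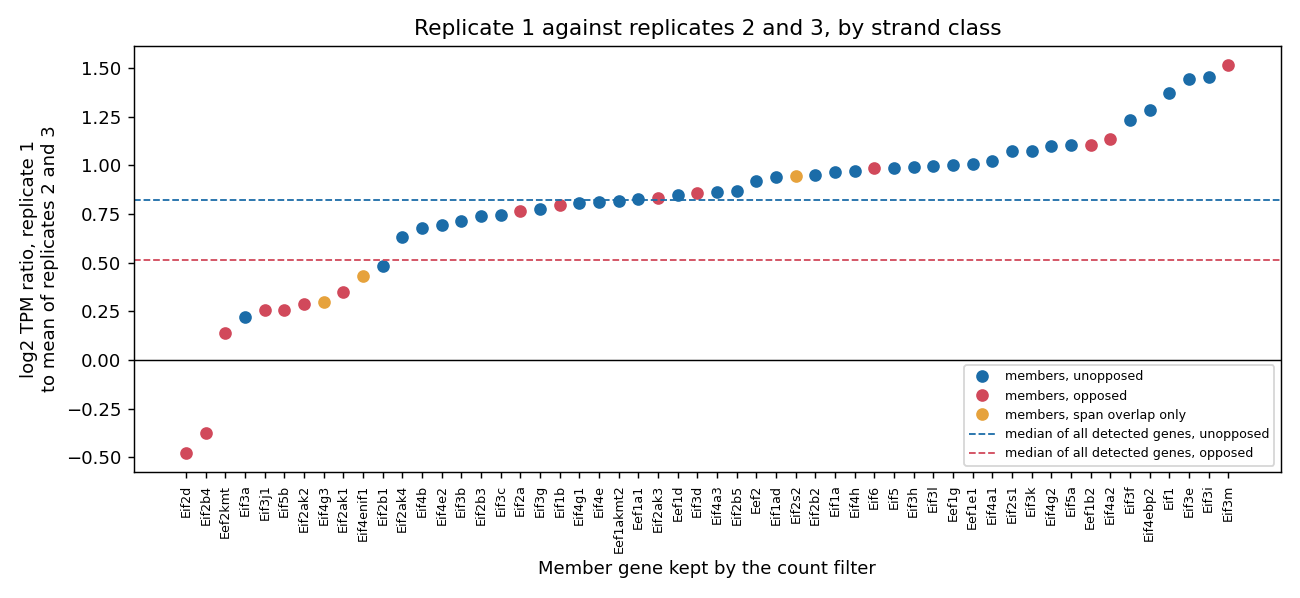
Log2 ratio of TPM + 0.1 in replicate 1 to the mean of replicates 2 and 3 for the 54 factors that passed the count filter, coloured by strand class, with dashed lines for the medians of all autosomal protein-coding genes at 1 TPM or more in every library (unopposed 0.82, opposed 0.51). Eif2d and Eif2b4 lie under 0 and Eif3m is highest.

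After TMM scaling, 54 factors passed edgeR's filter on low counts, and 40 of them (74.1%) differed between libraries by more than counting error (one-sided chi-square test, Benjamini-Hochberg over 9469 genes), against 59.6% of all genes tested. Depth enters here. Of the 44 factors with 500 summed counts or more 39 were called (88.6%), against 83% of such genes, and of the 10 tested factors below that 1 was called, against 45.3%. The smallest adjusted p belonged to Eif2d (1.22e-211), followed by Eef1b2 (3.47e-59), Eef1a1 (3.58e-57), Eif4g2 (1.54e-53), Eif1 (1.52e-51), Eif3a (6.16e-50), Eif4a1 (8.18e-49), Eef2 (4.89e-47), Eif3e (3.86e-41) and Eef1g (2.4e-40), all from edgeR's scaling and the chi-square test. Without replicate 1, 23 of 54 factors were called, against 2476 of 9677 genes, and calls of Eef1a1, Eif1 and Eif2d were among the 17 lost. With unopposed genes alone fitted, 21 of 35 factors were called, against 1536 of 4272 genes, where the fit on all genes called 27 of 36 unopposed factors.

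The farthest library, after TMM scaling, was judged by the log2 ratio of its count to that expected from the pooled libraries. Replicate 1, the largest library, weighs most in that pool. A high replicate 1 is therefore mostly marked as replicate 2 or 3 lower, so the tally does not single out replicate 2 as the odd library. Eif1, at TMM-scaled 415, 242 and 246 CPM, was marked as replicate 2 lower. Among the 40 factors beyond counting error, replicate 2 was farthest and lower in 23, which is 42.6% of the 54 tested, and genes beyond counting error with that pattern made up 17.4% of all genes tested. The counts and shares that follow are likewise of factors and genes beyond counting error. Eef1g is an example, with TMM-scaled 321, 162 and 321 CPM, as is Eif3f with 156, 70.7 and 129. Replicate 2 was farthest and higher in 1 factor, Eif3a, against 7.27%, and replicate 3 farthest and lower in 9, against 11.5%. Replicate 1 was farthest and lower in 2 factors (3.70%), Eif2d and Eif2b4, against 17.1% of all genes. Replicate 3 was farthest and higher in 5 factors, Eif2ak1, Eif3j1, Eif4g3, Eif5b and Eef2kmt, against 6.37%. Replicate 1 was farthest and higher in 0 factors, against 0% of all genes, an outcome that this pooled measure makes nearly certain.

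No factor was called as more variable than genes of its level. In edgeR's test against the dispersion trend 0 of the 54 factors passed after Benjamini-Hochberg adjustment, and 0.253% of all genes did. At an unadjusted p below 0.05 there were 0 factors, against 6.44% of all genes. Outlier calls by DESeq2 named 0 factors and only 4 of all 9469 genes, so this 0 says little about the factors. The smallest adjusted p was 0.944, for Eif3m. In simulated counts for the 9469 genes the share of altered genes that it found was 0.5% at a 2-fold change in 1 library, 41.5% at 4-fold and 89.5% at 8-fold. Among the 54 factors the largest TPM difference between replicate 1 and the mean of the others was the 2.86-fold of Eif3m. That value includes the rise of most genes in replicate 1, a median 1.67-fold for autosomal protein-coding genes at 1 TPM in every library. The test against the dispersion trend used TMM scaling, under which Eif3m had 143, 65.1 and 86.9 CPM in replicates 1, 2 and 3.

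Other genes of cytoplasmic translation, 24 in a list of cofactors and regulators, were likewise detected throughout. All 24 reached 1 TPM in every library and all were highest in replicate 1 in TPM, against 39.6% and 79.8% of the autosomal genes above. Their median was 36.6 ± 12.2 TPM (SD, n = 3). The list was chosen with earlier results of these data known, and the 39.6% is of all autosomal protein-coding genes, silent ones included. These shares are therefore no independent support. Of the 24 genes, 9 are opposed, against 22.9% of autosomal protein-coding genes. Tpt1, a small protein whose mRNA is known to begin with pyrimidines, led at 2416, 949 and 1641 TPM. Atf4, the transcription factor translated when eIF2 is phosphorylated, had 417, 164.5 and 241. Pabpc1, the poly(A)-binding protein that contacts eIF4G, had 252, 125 and 145, and Etf1, the release factor, 293, 163 and 129. Eefsec, the elongation factor of selenocysteine and an opposed gene, was lowest at 4.08, 1.52 and 2.31. Mknk2, a kinase of eIF4E, had 75.7, 27.5 and 38.0 TPM and Mknk1, an opposed gene, 7.82, 3.79 and 3.79. Dhps, which is opposed, and Dohh, the enzymes that make hypusine on eIF5A, had 44.8, 21.3 and 30.7 and 10.99, 5.33 and 9.57. Of the 23 tested, 12 differed by more than counting error, against 59.6% of all genes tested. By the pooled measure above, 9 of these 12 had the farthest library lower and 3 had it higher. Of the 23, 0 passed the dispersion trend.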

How the data were processed

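RNA of 3 Th1 libraries was analysed from counts per gene that the authors deposited. The alignment step ran in a mode for stranded paired ends, and counting over exons used featureCounts 1.4.6-p4 on GENCODE vM13 gene models (mm10), with both reads of a pair aligned and strand setting 1, all per the file headers. Columns of exon length come from the same deposited files. Symbols and biotypes came from GENCODE vM21 by gene identifier, which named 50376 of 50600 genes (99.6%). TPM and CPM were computed here over all genes. Strand classes used bedtools 2.31.1 on the files' coordinates. edgeR 4.0.16 (R 4.3.3; TMM, intercept only, filterByExpr with a minimum count of 10) gave a chi-square test of counting noise and a deviance test against the dispersion trend, both with 2 degrees of freedom and a Benjamini-Hochberg threshold of 0.05 over 9469 genes. DESeq2 1.42.0 was an alternative. A total of 3 counts was the limit for a count of 0, and 1 kb at 3 counts equals 1.37, 1.60 and 1.77 TPM in replicates 1, 2 and 3. Both tests were tested on simulated data. The log2 ratios used a pseudocount of 0.1 TPM. Start-site sequences are from RefSeq (GRCm38.p6). Members, lists, pairs and the rule for named genes (the highest and lowest of each complex, all subunits of eIF2, eIF2B, eIF3, eIF4F, eEF1 and eEF2, genes of pairs, opposed genes and the 10 with the smallest adjusted p) were chosen with earlier results of these data known. Alternatives changed the TPM denominator, scaling, filter, pseudocount and libraries used. The libraries differed by more than counting noise, so each was counted as 1 sample. Of the marker lists, the Th1 list had a median of 2.53 ± 0.997 TPM, the CD8 list 3.40 ± 1.75, macrophages and neutrophils 0.0235 ± 0.0406, and the B, NK and erythroid lists 0 (SD, n = 3).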

Additional observations from a re-analysis of the deposited data

How the results depend on the processing

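With protein-coding genes only in the TPM denominator the median of the factors was 121 TPM, and with unopposed protein-coding genes only, a setting chosen after seeing the data, it was 299, against 50.8 over all genes; fewer genes in the denominator raise every TPM. Leaving out each replicate in turn gave 39.0 to 59.0. Factors beyond counting noise numbered 21 with unopposed genes alone fitted, where fewer genes were tested, and 23 to 37 when each replicate was left out, against 40. Factors highest in replicate 1 numbered 21 with the unopposed denominator, against 57, and 39 to 50 under the other scalings, all chosen after seeing the data. The ratio of Eif2s1 to Eif2s2 turned to -0.34 without length correction, which leaves the longer gene with more counts, and that of Eif4g1 to Eif4g2 lay between -0.18 and 0.046 when each replicate was left out, above 0 without replicate 1; the cause was not tested. Of the 15 ratios, 13 moved by more than 1 SD without length correction, besides that of Eif2s1 to Eif2s2, which also changed sign. With a pseudocount of 1 TPM 5 moved by more than 1 SD. No ratio changed sign beyond those named. Factors at 1 TPM in every library numbered 39 among unopposed factors only and 57 to 60 under the other alternatives. No factor passed the dispersion trend under any alternative run. No paired analysis was possible because there is only 1 group. For genes with few counts, depth limits the values.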

Other observations

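Translation factors of mitochondria were looked up as a list of 7 nuclear genes. All 7 were at 1 TPM or more throughout, against 39.6% of autosomal protein-coding genes. Their median was 11.3 ± 0.336 TPM (SD, n = 3), near the 11.5 ± 3.69 of autosomal protein-coding genes at that level. A gene of the other strand opposes 5 of them, against 22.9% of autosomal protein-coding genes. Mtif3, an initiation factor, led at 107, 97.4 and 118 TPM in replicates 1, 2 and 3, from 1200, 937 and 1025 counts, and is opposed. Tufm, the mitochondrial counterpart of eEF1A and unopposed, had 38.1, 17.1 and 20.2 TPM, and Mtif2, the other unopposed gene, 11.3, 8.54 and 5.48. In TPM 4 of the 7 were highest in replicate 1. Of autosomal protein-coding genes at 1 TPM in every library 79.8% were, and of the opposed ones 65.3%.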
